A study of Rattus norvegicus with 48 samples.

Results

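The livers of rats killed 24 h after a single oral dose of 3 mg/kg RDX were compared with livers of the same dose arm taken at 0 h. The comparison was chosen by the sample titles and holds 3 arrays of 24 h and 3 arrays of 0 h, which are 6 of the 48 arrays of the study. RDX is a nitramine explosive that causes seizures at high doses, and the doses were chosen to stay below that effect. Male Sprague-Dawley rats received a weighed capsule of 3 or 18 mg/kg and were killed at 0, 4, 24 or 48 h, and liver and brain cortex were taken. All rats of the groups used here were dosed, lived in pairs under a 12 h light and 12 h dark cycle, and had free access to food and water. The groups are 24 h after 3 mg/kg, 0 h after 3 mg/kg, and, for the comparison between doses, 24 h after 18 mg/kg and 0 h after 18 mg/kg, with 3 arrays each. The labels name no vehicle group. Nor do they give the hour of day of sampling or tie arrays to single animals, so the p-values measure only the spread between arrays.

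The liver clears foreign chemicals with cytochrome P450 enzymes, which are induced through receptors such as AhR, CAR and PXR. It also runs a strong daily programme in which the nuclear receptors Nr1d1 and Nr1d2 (REV-ERB alpha and beta) repress Bmal1, and its amino acid and fat metabolism follows feeding. Adult hepatocytes seldom divide, and the genes of mitosis are transcribed together late in the cell cycle. They are known targets of the DREAM and B-MYB complexes, which act through a CHR element and CCAAT boxes close to the start of transcription.

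The samples were liver: Alb, the serum albumin gene, had log2 levels of 14.34, 14.34 and 14.32 at 24 h, against 14.38, 14.05 and 14.33 at 0 h. The 0 h arrays were less alike than the 24 h arrays. Correlations between arrays were 0.960 to 0.987 at 24 h and 0.887 to 0.965 at 0 h. The SD of all log2 values of an array, a measure of its spread, was 2.01, 1.86 and 2.0 in replicates 1, 2 and 3 at 24 h, against 1.82, 1.49 and 1.94 at 0 h. Replicate 2 of 0 h thus had compressed values, with a narrower range between dim and bright probe sets. The actin controls gave a log2 gap, 3' end minus 5' end, that grows with RNA degradation. It was 2.97, 2.76 and 3.35 at 24 h, against 4.38, 3.29 and 3.88 at 0 h, so the groups overlapped. The gap of the GAPDH controls was 2.58, 3.79 and 2.87 at 24 h, against 4.0, 1.42 and 3.46 at 0 h, and did not separate the groups either. Results below are therefore given with all arrays and, for lists and the genes described in full, without replicate 2 of 0 h. The values against the 3 arrays of 0 h in the 18 mg/kg arm are set beside them, an alternative chosen after the data were seen. Their array SDs were 1.94 to 2.01.

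**Figure D1:**
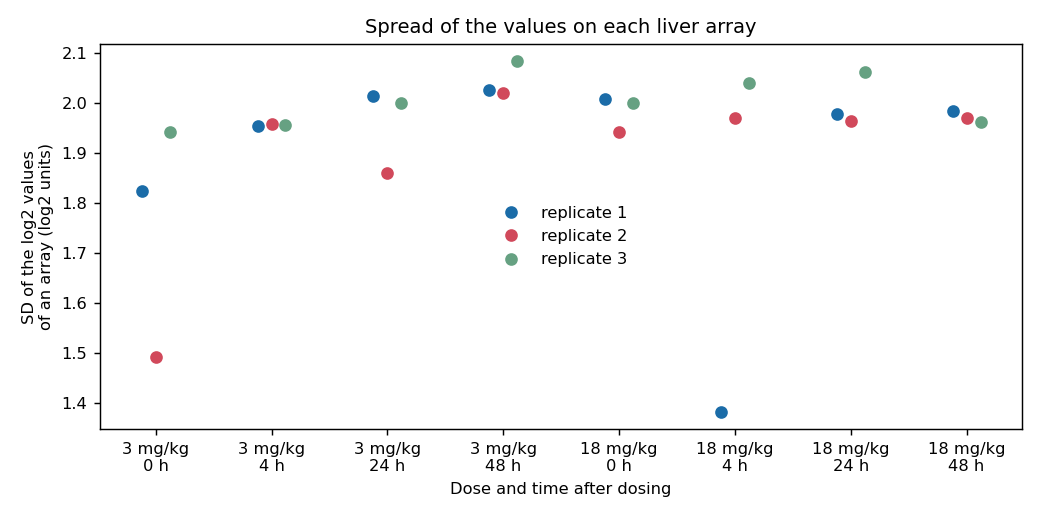
The SD of the log2 values (y axis, log2 units) is plotted for each of the 24 liver arrays by dose and time (x axis), with 1 point per array coloured by replicate number. Replicate 2 of 3 mg/kg 0 h lies at 1.49, below every array of 3 mg/kg 24 h (1.86 to 2.01).

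The comparison asked which liver transcripts differed a day after the low dose. The leading differences were in Mindy2, Ccdc127 and Fam13a, which were lower at 24 h, and in Atp11a, Ctps2 and Rnf113a2, which were higher, and none passed the test. Genes of mitosis, of amino acid breakdown, oxidative phosphorylation, the ribosome and the proteasome had mostly positive changes, and immediate early genes had mostly negative ones. Among the brightest 3105 probe sets 83.7% of changes were above 0, whatever the list. Against the 18 mg/kg 0 h arrays 31 of 32 mitosis genes were above 0. The other lists of positive change had there, in the order named, 18 of 31, 14 of 44, 2 of 21 and 13 of 30 above 0. Of the immediate early genes 19 of 31 were below 0 there. Of 31042 probe sets, 0 (0%) passed an adjusted p of 0.05 in limma, and the smallest adjusted p was 0.078. At an unadjusted p under 0.05 there were 6213 probe sets (20%), 3179 of them higher at 24 h (10.2%) and 3034 lower (9.77%). Without replicate 2 of 0 h again 0 passed, the smallest adjusted p was 0.272, and 2459 probe sets (7.92%) had an unadjusted p under 0.05. With array weights estimated by REML 10764 probe sets passed, with the actin gap as a covariate 9781, and without replicate 3 of 0 h 3777. The count of 0 thus did not hold under these settings. Leaving out replicate 3 kept the compressed replicate 2 in the 0 h reference. The REML weights of replicates 1, 2 and 3 of 0 h were 3.96, 0.116 and 0.347, so replicate 1 carried most of the 0 h mean.

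Changes depended on the level of the probe set. Among 10 groups of probe sets by mean level, the median log2 change was -0.16 in the dimmest, reached -0.25 in the fourth, and was 0.51 in the brightest. In the brightest group 83.7% of changes were above 0. Without replicate 2 of 0 h the medians of the 10 groups lay between -0.11 and 0.18, and against the 18 mg/kg 0 h arrays between -0.05 and 0.04. Each gene list below is therefore set beside its level median, the median change of probe sets of its members' level, with all arrays and without replicate 2 of 0 h. The part that the spread of the arrays has in these changes was not tested beyond the alternatives given.

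**Figure D2:**
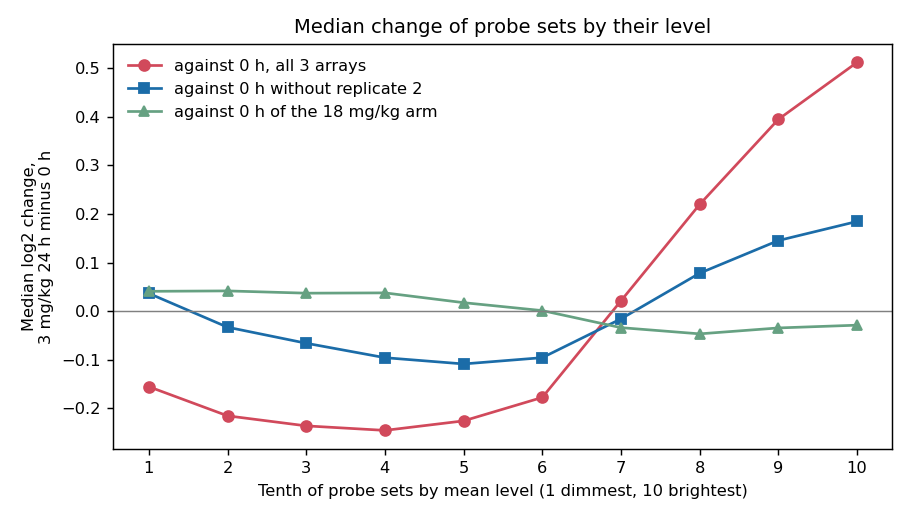
The median log2 change of 3 mg/kg 24 h minus 0 h (y axis) is plotted for 10 groups of about 3104 probe sets ordered by mean level (x axis), against all 3 arrays of 0 h, without replicate 2 of 0 h, and against the 0 h arrays of the 18 mg/kg arm. The line for all arrays climbs to 0.51 in the brightest group, the line without replicate 2 to 0.18, and the line against the 18 mg/kg arm stays between -0.05 and 0.04.

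Genes are described by the probe set with the highest mean level, and none of the 14217 genes measured passed. Groups are said not to overlap when every array of 24 h lies on one side of every array of 0 h, which held for 2864 genes (20.1%), 1538 higher (10.8%) and 1326 lower (9.33%). The 10 genes of smallest p among those higher at 24 h without overlap had log2 changes of 0.99 to 1.76, all at adjusted p = 0.078 in limma. The same 10 had changes of 0.90 to 1.42 without replicate 2 of 0 h, and against the 18 mg/kg 0 h arrays 0.073 to 0.67.

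Atp11a, a phospholipid flippase of the plasma membrane, had log2 levels of 9.62, 9.32 and 9.35 at 24 h, against 7.81, 7.74 and 8.59 at 0 h. All arrays of 24 h were above all of 0 h, and the log2 change was 1.39 ± 0.24 (SE, n = 3 per group), or 1.24 without replicate 2. The 18 mg/kg 0 h arrays had 9.02, 8.80 and 9.51, close to the 24 h arrays of 3 mg/kg, and the change against them was 0.32. Ctps2, a CTP synthase, had 9.57, 9.13 and 8.24 at 24 h, against 7.25, 6.88 and 8.03 at 0 h (log2 change 1.59 ± 0.30, or 1.34 without replicate 2 of 0 h). The gap between the groups was small, as the lowest array of 24 h had 8.24 and the highest of 0 h 8.03. Slc22a25, a member of the organic anion transporter family, had 6.55, 6.61 and 6.06 at 24 h, against 5.15, 5.44 and 5.35 at 0 h. It differs from the others in that leaving out replicate 2 of 0 h gave a larger change, 1.16 in place of 1.09 ± 0.22, and its change at 18 mg/kg was -0.32. Cfl2, the muscle-type cofilin that severs actin filaments, had 10.24, 9.85 and 10.15 at 24 h, against 8.64, 7.48 and 9.38 at 0 h. Its log2 change of 1.58 ± 0.32 was 1.07 without replicate 2 and 0.073 against the 18 mg/kg 0 h arrays.

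The other genes of this group were Rnf113a2 (log2 change 1.76), Fastkd3 (1.68), Morc3 (1.42), Zfp318 (1.23), Cdc42ep4 (1.15) and Eif4enif1 (0.99). Fastkd3 belongs to a family of mitochondrial RNA-binding proteins, and Eif4enif1 carries the cap-binding factor eIF4E into the nucleus. Against the 18 mg/kg 0 h arrays Zfp318 and Eif4enif1 kept groups that did not overlap, with changes of 0.57 and 0.59, and the other 8 of the 10 overlapped. Over all genes 7.55% did not overlap there, in either direction. Probe sets of 1 gene did not always run the same way: of 4525 genes with more than 1 probe set, 2453 (54.2%) had changes of both signs. Zfp318 (-1.02 to 1.23) and Atp11a (-0.17 to 1.39) were among them.

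The 10 leading genes lower at 24 h had log2 changes of -2.26 to -0.97, at adjusted p of 0.078 to 0.081. They lay between -2.12 and -0.76 without replicate 2 of 0 h, and against the 18 mg/kg 0 h arrays between -0.64 and 0.12. Mindy2, a deubiquitinase, had 6.71, 6.25 and 7.26 at 24 h, against 8.49, 8.84 and 7.98 at 0 h (log2 change -1.70 ± 0.27, or -1.49 without replicate 2). Ccdc127 had 6.60, 6.72 and 7.43 at 24 h, against 9.15, 10.28 and 8.11 at 0 h (-2.26 ± 0.40, or -1.71 without replicate 2). The levels of both genes at 0 h stood above those of the 18 mg/kg 0 h arrays, where Mindy2 had 7.02, 7.34 and 6.94 and Ccdc127 had 7.45, 7.30 and 6.58. Other probe sets of these genes reached 0.57 for Mindy2 and 0.80 for Ccdc127. Of the 10 leading genes lower at 24 h, 5 had more than 1 probe set, and 4 of these had changes of both signs.

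Fam13a had 5.81, 4.67 and 5.76 at 24 h, against 8.09, 6.73 and 6.98 at 0 h, and its change of -1.85 ± 0.42 became -2.12 without replicate 2 of 0 h. Ppargc1b, a coactivator of mitochondrial biogenesis genes, had 5.68, 5.18 and 5.94 at 24 h, against 7.50, 6.97 and 6.49 at 0 h. Its change was -1.39 ± 0.33 with all arrays, -1.40 without replicate 2 and -0.64 against the 18 mg/kg 0 h arrays. These genes were thus lower at 24 h to a like extent whether or not replicate 2 was used. Slc7a8, a transporter of neutral amino acids (log2 change -0.97), was the only one of these 10 whose 24 h arrays also lay below all 18 mg/kg 0 h arrays, with a change of -0.29. St14 (-1.30), a membrane serine protease, Ints7 (-1.26), Foxp1 (-1.18), a forkhead factor, Xpnpep3 (-1.18) and Sox6 (-1.09) complete the group, and the last 2 had changes of 0.080 and 0.12 against those arrays.

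**Figure D3:**
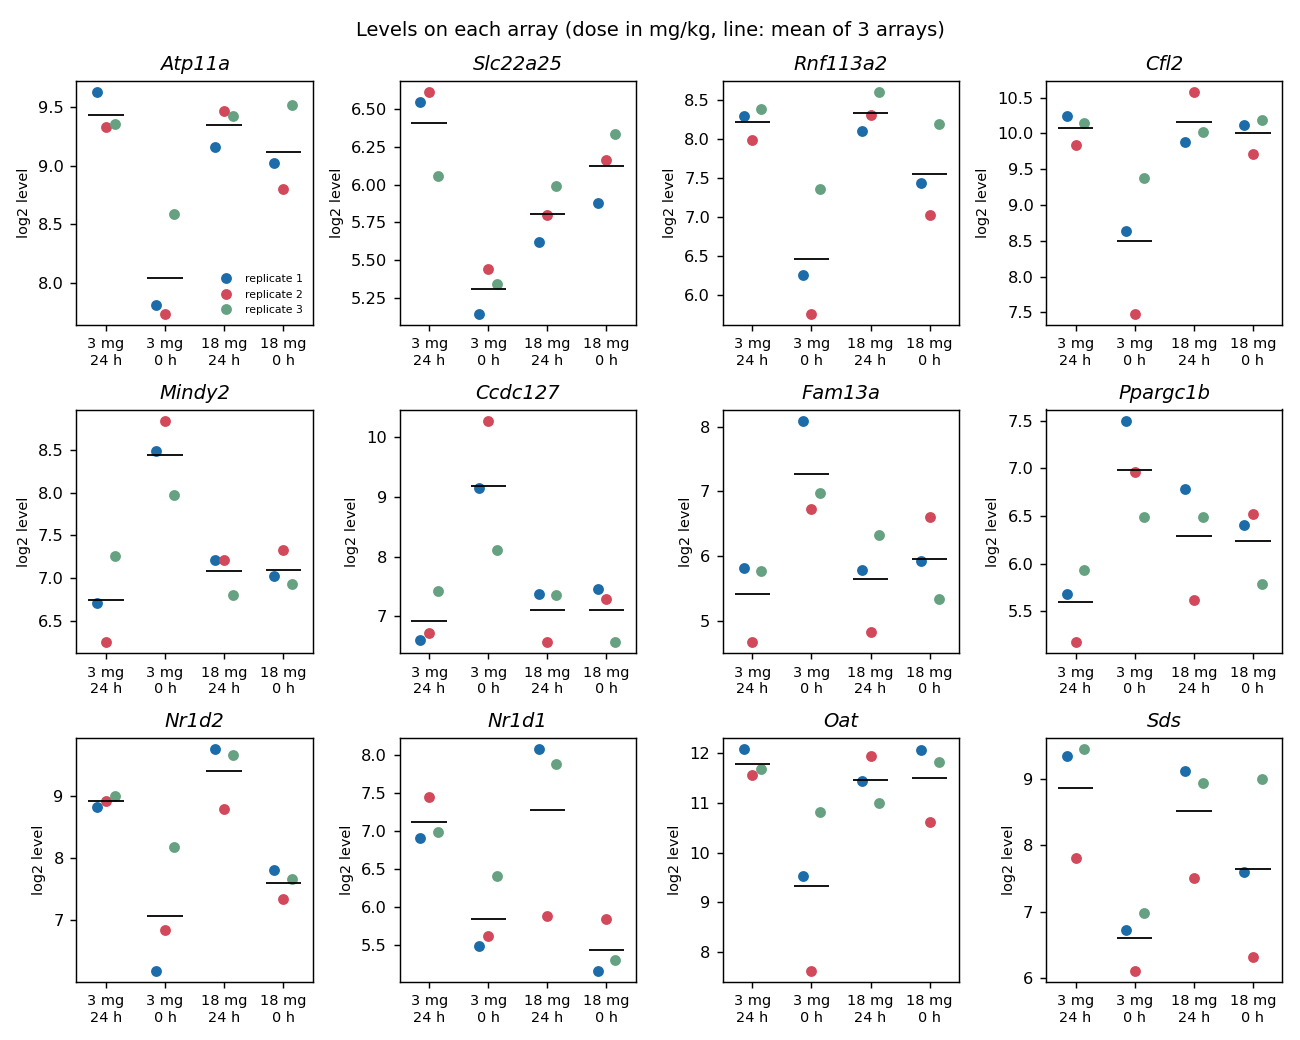
Log2 levels (y axis) of 12 genes are plotted for each array, coloured by replicate number, in 24 h and 0 h after 3 mg/kg and 24 h and 0 h after 18 mg/kg (x axis), with the mean of 3 arrays as a line. For most genes of the upper 2 rows the 3 mg/kg 0 h arrays stand apart from the other 3 groups, as in Ccdc127, while Nr1d2 and Nr1d1 have higher means at 24 h in both dose arms.

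Genes of mitosis were mostly higher at 24 h after 3 mg/kg, and their changes after 18 mg/kg were negative. Of 32 measured, 30 had a log2 change above 0 at 24 h after 3 mg/kg (53.4% of all genes), with a median of 0.53 against a level median of 0.021. An unadjusted p under 0.05 with a positive change was reached by 13 of the 32, against 15.4% of all genes, and the smallest adjusted p was 0.093. Only 3 of the 32 (9.38%) were higher at 24 h without overlap, against 10.8% of all genes. The 2 below 0 were Plk1 (-0.47) and Cdca3 (-0.35), named after their values were seen. Without replicate 2 of 0 h 29 of the 32 were above 0 (55.9% of all genes), with a median of 0.43 against a level median of -0.016. Against the 18 mg/kg 0 h arrays 31 were above 0 (46.3% of all genes), also with a median of 0.43. The median was 0.74 without replicate 3 of 0 h and 0.37 without replicate 1.

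Promoters of 3 of these genes are shown because 2 short elements of mitosis promoters can be seen in them, the CCAAT box in all 3 and the CHR in Cdk1 and Tacc3. They are given as 250 bases before the RefSeq start in build GRCr8, 5' to 3' on the gene's strand. Capitals mark the CHR (TTTGAA) and the CCAAT box (CCAAT), each searched on both strands, and no matches overlap. Cdk1 drives entry into mitosis, Tacc3 stabilises spindle microtubules, and Nusap1 bundles them.
Cdk1, chr20:19265043-19265292, + strand: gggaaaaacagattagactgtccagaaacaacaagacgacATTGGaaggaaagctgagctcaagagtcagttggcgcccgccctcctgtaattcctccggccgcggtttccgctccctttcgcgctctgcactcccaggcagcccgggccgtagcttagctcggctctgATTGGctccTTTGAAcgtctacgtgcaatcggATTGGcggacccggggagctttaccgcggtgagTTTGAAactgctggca
Tacc3, chr14:81289699-81289948, - strand: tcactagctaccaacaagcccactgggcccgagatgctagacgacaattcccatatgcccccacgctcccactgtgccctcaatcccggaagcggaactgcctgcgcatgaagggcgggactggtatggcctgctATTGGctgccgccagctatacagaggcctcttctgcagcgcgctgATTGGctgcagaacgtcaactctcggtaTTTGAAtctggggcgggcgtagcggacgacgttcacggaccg
Nusap1, chr3:127057045-127057294, + strand: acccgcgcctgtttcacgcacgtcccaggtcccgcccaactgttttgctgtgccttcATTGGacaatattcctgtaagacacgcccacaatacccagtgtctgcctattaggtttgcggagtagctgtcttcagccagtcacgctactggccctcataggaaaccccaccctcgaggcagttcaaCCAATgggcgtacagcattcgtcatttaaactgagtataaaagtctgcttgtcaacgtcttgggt

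The Cdk1 window holds the CHR letters 72 and 16 bases before the start and the Tacc3 window 42 bases before it, and none was found in the Nusap1 window. Among 27 mitosis genes with a promoter in the table, 14 (51.9%) held the CHR letters and 22 (81.5%) a CCAAT box. Over all 27457 promoters the shares were 16.0% and 34.3%. In the S phase list, 1 of 26 promoters (3.85%) held the CHR letters and 13 a CCAAT box. These matches are a description of the sequence.

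Cdk1 had log2 levels of 8.81, 8.14 and 8.49 at 24 h after 3 mg/kg, against 6.91, 6.36 and 8.22 at 0 h. Replicate 3 of 0 h overlapped the 24 h arrays, and the change was 1.32 ± 0.38 (adjusted p = 0.098 in limma), or 0.91 without replicate 2. After 18 mg/kg Cdk1 had 6.03, 7.33 and 6.56 at 24 h, against 7.89, 8.04 and 8.15 at 0 h, with no overlap. The 18 mg/kg change less the 3 mg/kg change was -2.70 ± 0.54, with an adjusted p of 0.323 over all probe sets. Nusap1 had 8.73, 8.59 and 8.14 at 24 h after 3 mg/kg, against 6.99, 6.19 and 8.33 at 0 h (log2 change 1.32 ± 0.40, or 0.82 without replicate 2). Its difference between doses was -2.27 ± 0.56. Tacc3 had 8.16, 8.02 and 7.94 at 24 h, against 6.45, 5.98 and 7.98 at 0 h, so replicate 3 of 0 h again reached the 24 h levels. Its change was 1.24 ± 0.35, or 0.82 without replicate 2, and another of its probe sets had -0.67. Ube2c, the ubiquitin-conjugating enzyme of the anaphase-promoting complex, had 9.12, 8.64 and 8.89 at 24 h after 3 mg/kg, against 7.95, 7.24 and 8.85 at 0 h (0.87 ± 0.28, or 0.49 without replicate 2). After 18 mg/kg it had 7.02, 7.72 and 7.04 at 24 h, against 8.47, 8.56 and 8.49 at 0 h, and its difference between doses was -2.13 ± 0.40.

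The difference between doses, taken as the 18 mg/kg change less the 3 mg/kg change, passed for 0 of 31042 probe sets (0%) in limma, with a smallest adjusted p of 0.142, and 2527 probe sets (8.14%) had an unadjusted p under 0.05. Among mitosis genes it was below 0 for all 32 measured, where 54.6% of all genes were below 0, and ranged from -2.98 to -0.24. An unadjusted p under 0.05 with a negative difference was reached by 27 of the 32, against 4.82% of all genes, and by 24 without replicate 2 of 3 mg/kg 0 h. Over the 12 settings that left out 1 of the 12 arrays the count lay between 24 and 29. After 18 mg/kg 0 of the 32 had a change above 0 at 24 h (51.7% of all genes), with a median of -1.02, and 24 were lower at an unadjusted p under 0.05, against 1.05% of all genes. The smallest adjusted p of these 32 changes after 18 mg/kg was 0.579 in limma.

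The mean log2 level of the 32 mitosis genes was 7.96, 8.08 and 7.77 in the 24 h arrays of 3 mg/kg, against 7.0, 7.09 and 8.0 at 0 h. The groups overlapped through replicate 3 of 0 h. It was 6.80, 6.80 and 6.69 at 4 h and 7.45, 7.40 and 6.98 at 48 h of the same arm. In the 18 mg/kg arm it was 6.29, 6.93 and 6.30 at 24 h, against 7.36, 7.74 and 7.31 at 0 h, and all 24 h arrays were lower. In these whole-liver samples a change in the number of dividing cells and a change in RNA per cell cannot be told apart.

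**Figure D4:**
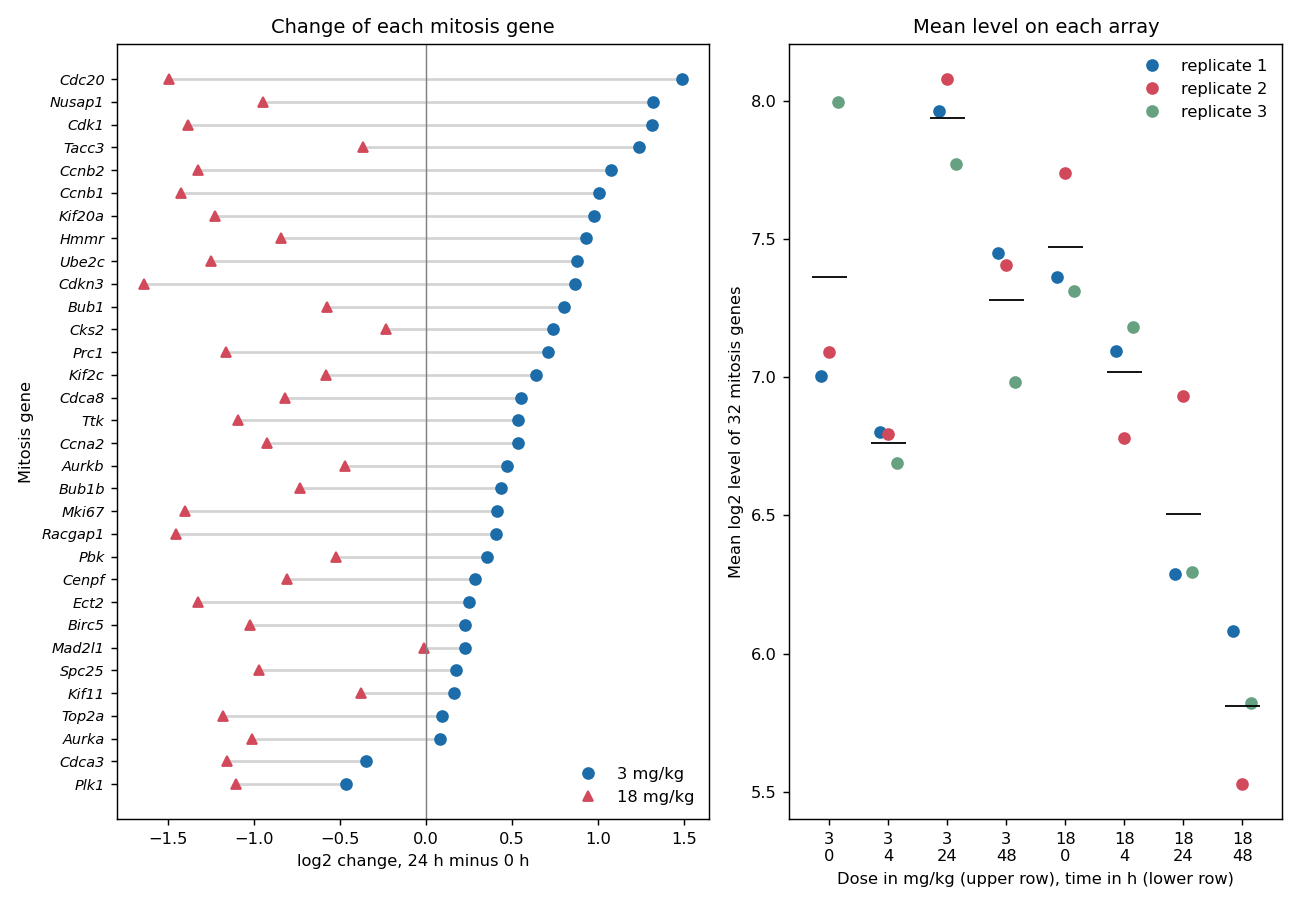
The left panel plots the log2 change of 24 h minus 0 h (x axis) of 32 mitosis genes (y axis) after 3 mg/kg (circles) and 18 mg/kg (triangles), and the right panel the mean log2 level of these genes (y axis) on each of the 24 liver arrays by dose and time (x axis), with the mean of 3 arrays as a line. All 32 triangles lie to the left of their circles, and replicate 3 of 3 mg/kg 0 h (8.0) lies among the 3 mg/kg 24 h arrays (7.77 to 8.08).

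Genes of S phase and DNA replication did not share this pattern in their values. Of 30 measured, 14 were above 0, the median was -0.085 against a level median of 0.021, and 8 were lower at 24 h without overlap, where 9.33% of all genes were. Without replicate 2 of 0 h 12 were above 0, with a median of -0.093 against a level median of -0.016. Ccne2, a cyclin of the G1 to S transition, had 6.88, 6.72 and 6.73 at 24 h, against 7.38, 8.74 and 7.09 at 0 h (log2 change -0.96 ± 0.31), which was -0.46 without replicate 2. Cdt1, a licensing factor of replication origins, had a change of -0.86 ± 0.31 and -0.60 without it, and Tyms, thymidylate synthase, -0.78 ± 0.28 and -0.72. In the list of G1 cyclins, CDK inhibitors and p53 targets 12 of 20 were above 0, with a median of 0.15 below the level median of 0.22. Leaving out replicate 2 of 0 h gave 10 of 20 and a median of 0.0017, and the 18 mg/kg 0 h arrays gave -0.11. Bbc3, which encodes the cell death factor PUMA, had 9.24, 8.91 and 8.92 at 24 h, against 7.87, 6.75 and 8.42 at 0 h (1.34 ± 0.30, adjusted p = 0.081), with 0.88 without replicate 2 and 0.063 against the 18 mg/kg 0 h arrays.

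Clock genes differed one from another. Of 17 measured, 6 were above 0, the median was -0.052 against a level median of 0.22, and 4 were higher at an unadjusted p under 0.05, against 15.4% of all genes. Leaving out replicate 2 of 0 h gave 8 above 0 and a median of -0.083 against a level median of 0.078. Nr1d2 had log2 levels of 8.82, 8.91 and 9.00 at 24 h, against 6.20, 6.84 and 8.18 at 0 h. All 24 h arrays were higher, and the change was 1.83 ± 0.45 (adjusted p = 0.084), or 1.72 without replicate 2 of 0 h, with -0.47 in another of its probe sets. Against the 18 mg/kg 0 h arrays, which had 7.81, 7.34 and 7.67, the change was 1.30, again without overlap. Nr1d1 had 6.91, 7.45 and 6.98 at 24 h, against 5.48, 5.62 and 6.41 at 0 h. Its change was 1.28 ± 0.50 (adjusted p = 0.166), 1.17 without replicate 2, and 1.68 against the 18 mg/kg 0 h arrays without overlap.

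Both genes also had positive changes at other points of the time course. Nr1d2 had changes against its own 0 h group of 2.91 at 4 h and 1.32 at 48 h after 3 mg/kg, and 1.79 at 24 h after 18 mg/kg. Nr1d1 had 3.21, 0.22 and 1.84 at the same points. The difference between the doses at 24 h was -0.044 ± 0.64 for Nr1d2 and 0.57 ± 0.70 for Nr1d1, with adjusted p of 0.989 and 0.814. Bmal1, which Nr1d1 and Nr1d2 are known to repress, had 7.94, 6.40 and 7.78 at 24 h, against 6.15, 5.09 and 6.63 at 0 h, with overlap (1.42 ± 0.58, or 0.98 without replicate 2). Clock, its partner, had a change of 0.86 ± 0.28 and 0.45 without replicate 2. Dbp, a clock output factor, had 0.066 ± 0.38 and 0.25.

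Genes of the urea cycle and amino acid breakdown were mostly higher at 24 h. Of 31 measured, 29 were above 0 with a median of 0.77 against a level median of 0.51, and 13 were higher at an unadjusted p under 0.05, against 15.4% of all genes. The median was 0.33 without replicate 2 of 0 h, against a level median of 0.18, and 0.02 against the 18 mg/kg 0 h arrays, with 18 of 31 above 0. The share of 15.4% is not matched for level, and the count of 13 was not made without replicate 2. Other bright lists had, at that p, 8 of 19 (iron, heme and metallothionein), 17 of 44 (oxidative phosphorylation) and 1 of 19 (apolipoproteins and plasma carriers). Oat, ornithine aminotransferase, had 12.08, 11.56 and 11.68 at 24 h, against 9.53, 7.63 and 10.82 at 0 h. Its change of 2.45 ± 0.63 (adjusted p = 0.086) was 1.60 without replicate 2 and 0.27 against the 18 mg/kg 0 h arrays. Sds, serine dehydratase, which feeds serine into glucose synthesis, had 9.35, 7.81 and 9.45 at 24 h, against 6.73, 6.12 and 6.98 at 0 h. Its change was 2.26 ± 0.73 (adjusted p = 0.117), 2.01 without replicate 2, 1.23 against the 18 mg/kg 0 h arrays, and 0.88 at 24 h after 18 mg/kg. The 18 mg/kg 0 h arrays (7.60, 6.33 and 9.0) overlapped the 24 h arrays of 3 mg/kg. Kmo, a kynurenine hydroxylase, had a change of 1.07 ± 0.29, 0.68 without replicate 2 and -0.0099 against those arrays.

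Phgdh, the first enzyme of serine synthesis, ran the other way, with 5.60, 6.10 and 7.69 at 24 h, against 8.59, 8.67 and 7.69 at 0 h. The highest array of 24 h and the lowest of 0 h both had 7.69. The change was -1.85 ± 0.64 (adjusted p = 0.133 in limma), -1.68 without replicate 2 and -0.91 against the 18 mg/kg 0 h arrays. Phgdh stands in the list of unfolded protein and ATF4 response genes, of which 18 of 29 were above 0, with a median of 0.18 below the level median of 0.51. The direction of this list turned: its median was -0.018 without replicate 2 of 0 h (13 of 29 above 0), -0.19 with quantile normalisation, -0.12 with SD scaling and -0.10 against the 18 mg/kg 0 h arrays. Among genes of gluconeogenesis and fasting 13 of 17 were above 0, and their median of 0.52 was at the level median of 0.51. It was 0.27 without replicate 2, against a level median of 0.18, then 0.12 with quantile normalisation and 0.0031 against the 18 mg/kg 0 h arrays. Ppargc1a, a coactivator induced by fasting, had 5.59, 5.09 and 5.63 at 24 h, against 6.35, 6.25 and 6.13 at 0 h (-0.81 ± 0.34, or -0.80 without replicate 2), and -0.26 against the 18 mg/kg 0 h arrays.

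Immediate early genes, which respond within minutes to growth factors and stress, were mostly lower at 24 h. Of 31 measured, 27 were below 0, the median was -0.27 against a level median of 0.021, and 7 were lower without overlap, against 9.33% of all genes. The median was -0.21 without replicate 2 of 0 h, against a level median of -0.016, and against the 18 mg/kg 0 h arrays -0.12. Dusp6, a phosphatase that turns off ERK, had 9.69, 9.39 and 9.40 at 24 h, against 9.98, 10.36 and 10.67 at 0 h. Its change was -0.84 ± 0.29 (adjusted p = 0.133), -0.83 without replicate 2 and -0.99 against the 18 mg/kg 0 h arrays, in each case without overlap. Junb, an AP-1 subunit, had 6.71, 6.54 and 6.75 at 24 h, against 6.92, 7.18 and 7.97 at 0 h (-0.69 ± 0.30, -0.78 without replicate 2, -0.44 against the 18 mg/kg 0 h arrays). Klf2, a zinc finger factor, had a change of -0.77 ± 0.27 and -0.45 without replicate 2. Hspa1a, an inducible HSP70, had 6.05, 5.48 and 6.19 at 24 h, against 6.66, 6.38 and 6.27 at 0 h (-0.53 ± 0.21, or -0.55 without replicate 2), and -0.62 against the 18 mg/kg 0 h arrays without overlap. In the list of heat shock proteins 14 of 19 were above 0, with a median of 0.27 below the level median of 0.40. Its direction turned as well, to 9 of 19 and -0.029 without replicate 2 of 0 h, a median of -0.061 with quantile normalisation, and 2 of 19 and -0.17 against the 18 mg/kg 0 h arrays. At 24 h after 18 mg/kg, Dusp6 had a change of -0.60, Junb -0.29 and Hspa1a -0.34.

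Of the genes of drug metabolism, the CAR and PXR targets had 16 of 19 above 0 with a median of 0.44, below the level median of 0.51. The median was 0.20 without replicate 2 of 0 h, against a level median of 0.18, and against the 18 mg/kg 0 h arrays -0.07. Cyp3a9, a P450 enzyme, had 11.37, 10.05 and 10.21 at 24 h, against 9.12, 8.27 and 9.98 at 0 h (1.42 ± 0.41, or 0.99 without replicate 2). Cyp3a23-3a1, the classic PXR target of rat liver, had 12.64, 12.68 and 12.34 at 24 h, against 12.43, 12.63 and 12.28 at 0 h. The groups overlapped, and the change was 0.11 ± 0.17 (adjusted p = 0.740), or 0.20 without replicate 2. AhR targets had 4 of 8 above 0, with a median of 0.082 against a level median of -0.22, and 0.091 against -0.050 without replicate 2. Cyp1a1, the enzyme most responsive to AhR, had 5.89, 5.78 and 5.49 at 24 h, against 5.82, 5.88 and 5.82 at 0 h (-0.12 ± 0.25, or -0.098 without replicate 2). Cyp1a2, which liver makes without induction, had 12.06, 11.60 and 11.97 at 24 h, against 10.76, 8.69 and 11.28 at 0 h. Its change of 1.64 ± 0.48 was 0.86 without replicate 2 and -0.18 against the 18 mg/kg 0 h arrays. Por, the reductase that serves the P450 enzymes, had 0.39 ± 0.52 and -0.056 without replicate 2.

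Conjugation enzymes (19 of 24 above 0, median 0.35), NRF2 targets (10 of 16, median 0.29) and membrane transporters (13 of 17, median 0.44) had medians below their level medians, which were 0.45 to 0.51, with all arrays. This order turned without replicate 2 of 0 h, where the medians were 0.21, 0.21 and 0.32 and the level medians 0.17 to 0.18. Against the 18 mg/kg 0 h arrays the list medians were -0.062, -0.031 and -0.074. Of the 20 genes fixed by name, 17 were measured, 0 passed in limma, and 3 had an unadjusted p under 0.05, against 22.4% of all genes. The log2 changes of the 17 ran from -0.64 to 1.42. The 12 picked for a change under 0.5 in size lay between -0.30 and 0.39. The smallest adjusted p among these 12 was 0.581 in limma, which follows in part from that pick.

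Several other lists of abundant transcripts had medians above their level median with all arrays. Cytosolic ribosomal protein genes had 19 of 21 above 0 (median 0.94), oxidative phosphorylation subunits 40 of 44 (0.80), proteasome subunits 26 of 30 (0.75), complement and coagulation factors 27 of 27 (0.73) and splicing factors 24 of 28 (0.61). Their level median was 0.51, the median change of the brightest group of probe sets, which spans mean levels of 9.57 to 14.31. Whether the order would hold with a finer match of level was not tested. Without replicate 2 of 0 h these medians were 0.41, 0.29, 0.40, 0.30 and 0.26, against a level median of 0.18, and against the 18 mg/kg 0 h arrays they lay between -0.06 and 0.06. Cox7b, a subunit of cytochrome oxidase, had 12.75, 12.08 and 12.62 at 24 h, against 10.93, 8.89 and 12.36 at 0 h (1.76 ± 0.50, or 0.84 without replicate 2). Replicate 2 of 0 h was the lowest array for Cox7b, and for Rpl27, a ribosomal protein gene, which had 12.46, 12.03 and 12.40 at 24 h, against 10.82, 9.61 and 12.06 at 0 h (1.47, or 0.86 without replicate 2). Psma1, a proteasome subunit, had a change of 1.82 ± 0.49, 1.23 without replicate 2 and 0.29 against the 18 mg/kg 0 h arrays. Luc7l3, a splicing factor, had 10.44, 10.35 and 10.43 at 24 h, against 9.52, 8.99 and 9.97 at 0 h. Its change of 0.91 ± 0.19 (adjusted p = 0.078) was 0.66 without replicate 2 and 0.29 against the 18 mg/kg 0 h arrays, without overlap, with -0.61 in another of its probe sets.

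Fatty acid synthesis genes had 18 of 21 above 0 after 3 mg/kg, with a median of 0.45 below the level median of 0.51, and 5 of 21 after 18 mg/kg (median -0.31). The difference between doses was negative at an unadjusted p under 0.05 in 8 of 21, against 4.82% of all genes. The 3 mg/kg median was 0.21 without replicate 2 of 0 h, against a level median of 0.18, and 0.18 against the 18 mg/kg 0 h arrays. For the difference between doses, the share of 4.82% is not matched for level. Other bright lists had 8 of 44 (oxidative phosphorylation), 3 of 30 (proteasome), 3 of 27 (complement and coagulation) and 0 of 21 (cholesterol synthesis). These counts were not made without replicate 2 of 0 h. Acly, which makes cytosolic acetyl-CoA, had 12.53, 12.51 and 12.66 at 24 h after 3 mg/kg, against 11.85, 10.17 and 12.38 at 0 h (1.10 ± 0.43, or 0.45 without replicate 2), and its change was 0.50 against the 18 mg/kg 0 h arrays without overlap. Elovl5, a fatty acid elongase, had a change of 1.55 ± 0.46, 0.61 without replicate 2 and 0.064 against those arrays. Glucocorticoid-induced genes had 11 of 15 above 0, with a median of 0.44 against a level median of 0.40, and 0.26 against 0.15 without replicate 2 of 0 h. Their median was 0.037 with quantile normalisation and -0.071 against the 18 mg/kg 0 h arrays, where 6 of 15 were above 0. Errfi1, a member of this list, had 1.61 ± 0.52 and 0.71 without replicate 2.

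Interferon-induced genes had 21 of 25 above 0 with a median of 0.50 against a level median of 0.22, and 0.43 against 0.078 without replicate 2 of 0 h. Mx1, an antiviral GTPase, had 7.49, 6.98 and 6.90 at 24 h, against 5.85, 5.57 and 5.96 at 0 h (1.33 ± 0.43, or 1.22 without replicate 2). The 18 mg/kg 0 h arrays had 7.36, 6.06 and 7.98, so Mx1 did not stand apart from them (-0.012), and the list's median against them was -0.11. Hamp, which encodes the iron hormone hepcidin, had 12.23, 12.53 and 12.15 at 24 h, against 10.39, 10.31 and 12.17 at 0 h (1.34 ± 0.36, or 1.02 without replicate 2). Replicate 3 of 0 h was at the 24 h level, and the change against the 18 mg/kg 0 h arrays was -0.28. Stat5b, which carries growth hormone signals, had 7.33, 7.50 and 7.28 at 24 h, against 6.0, 5.96 and 6.82 at 0 h (1.11 ± 0.33, or 0.96 without replicate 2).

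Markers of other liver cells were followed because whole tissue was used. The summed level of Kupffer cell and macrophage markers was 13.88 to 14.06 on the log2 scale at 24 h, against 13.27 to 13.92 at 0 h, and 9 of 11 markers were above 0. Their median was 0.70 against a level median of 0.51, and 0.22 against 0.18 without replicate 2, and against the 18 mg/kg 0 h arrays 0 of 11 were above 0 (median -0.28). Cd68, a macrophage lysosomal protein, had 9.91, 9.58 and 9.67 at 24 h, against 9.07, 6.49 and 9.25 at 0 h (1.45 ± 0.49, or 0.56 without replicate 2). Cd163, a scavenger receptor of tissue macrophages, ran the other way, with 9.00, 9.33 and 8.75 at 24 h, against 9.57, 10.28 and 9.42 at 0 h (-0.73 ± 0.24, or -0.47 without replicate 2). Against the 18 mg/kg 0 h arrays the 2 genes had changes of -0.31 and -0.0091. The summed level of lymphocyte markers was 9.70 to 9.92 at 24 h, against 9.83 to 10.06 at 0 h. Of 13, 2 were above 0, with a median of -0.11 above the level median of -0.23, and 5 without replicate 2 (-0.083 against -0.096) and 6 against the 18 mg/kg 0 h arrays. Ptprc, the CD45 protein of all white blood cells, was one of the 2 (1.02 ± 0.28, or 0.97 without replicate 2), and Cd3d, a T cell receptor subunit, had -0.59 ± 0.20, or -0.44 without replicate 2. The summed level of hepatocyte markers was 16.44 to 16.56 at 24 h, against 15.72 to 16.46 at 0 h, and their median change of 0.52, or 0.30 without replicate 2, stood beside level medians of 0.51 and 0.18. Its sign turned, to -0.21 with SD scaling and -0.022 against the 18 mg/kg 0 h arrays, where 3 of 9 were above 0. The part that other cells have in the gene lists above was not tested.

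Over all 42 lists, which held 764 measured genes, 34 medians were above 0 with all arrays, 32 without replicate 2 of 0 h, and 10 against the 18 mg/kg 0 h arrays. Against those arrays 0 of 31042 probe sets (0%) passed in limma and 427 (1.38%) had an unadjusted p under 0.05. The mitosis list had the highest median there, 0.43.

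**Figure D5:**
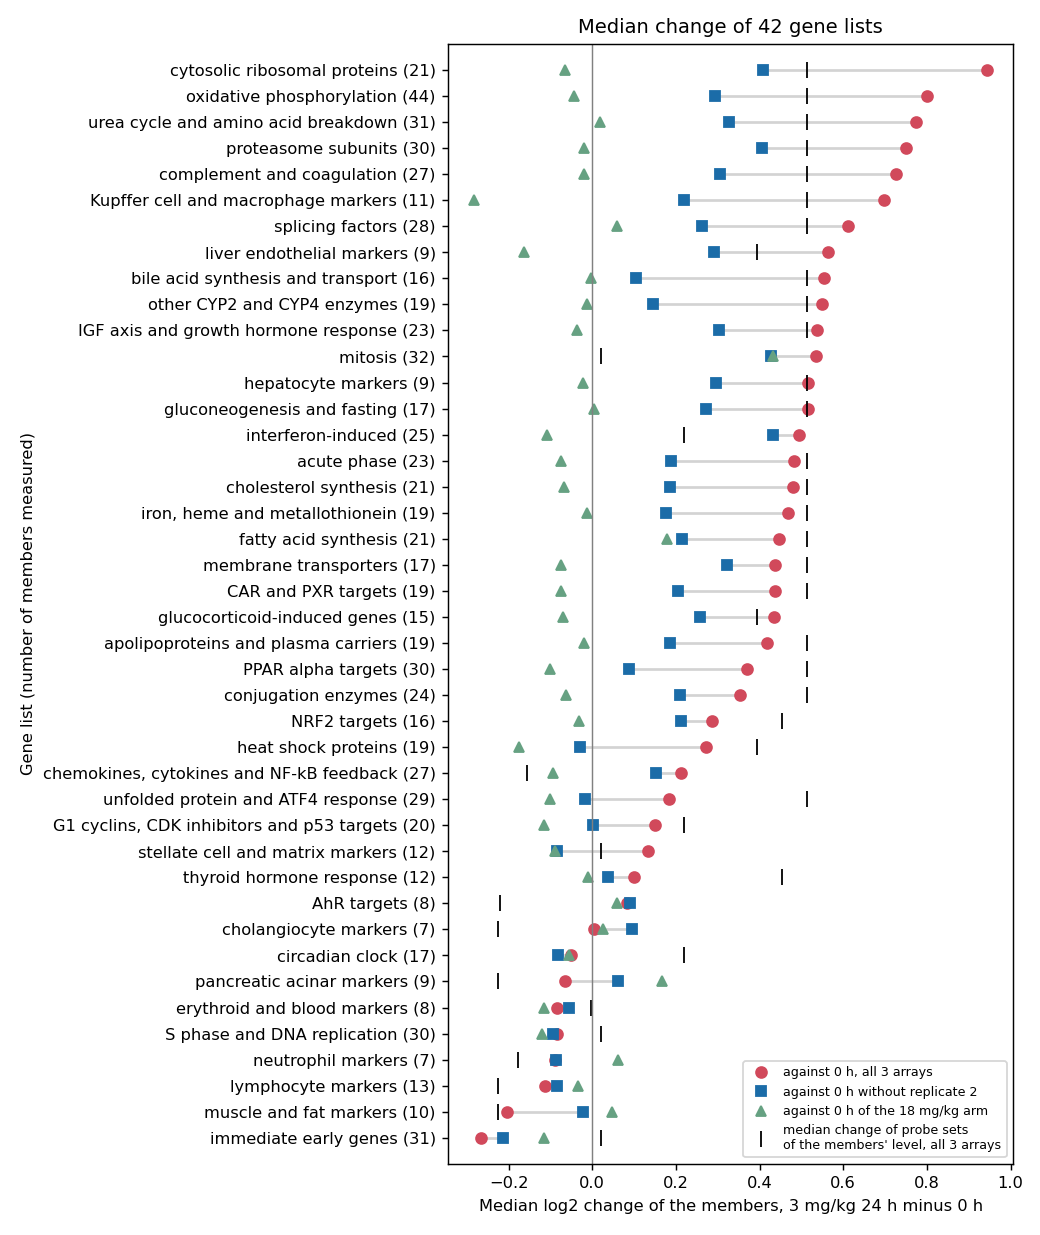
The median log2 change of 3 mg/kg 24 h minus 0 h (x axis) is plotted for 42 gene lists (y axis, number of members measured in brackets) against all 3 arrays of 0 h (circles), without replicate 2 of 0 h (squares) and against the 0 h arrays of the 18 mg/kg arm (triangles), with the median change of probe sets of the members' level as a tick. Most triangles lie near 0, while the mitosis circle lies at 0.53 beside a tick at 0.02 with its triangle at 0.43.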

How the data were processed

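The authors deposited log2 values from Affymetrix rat arrays, and RMA and Partek are named for them per the submitters' processing notes, with no version. The values were used without further scaling. Of the probe sets, 57 controls were left out and 31042 kept; 20826 had 1 gene symbol, 436 several and 9780 none, and 20758 matched the RefSeq table by Entrez ID. Arrays carry no molecule counts, so their number limits the precision. Probe sets of near-identical genes (Hspa1a, Cyp3a23-3a1) can share signal.

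Models were fitted in limma 3.58.1 (R 4.3.3) over 24 liver arrays with 8 group means and moderated variances. P-values are two-sided with Benjamini-Hochberg adjustment over all probe sets and a threshold of 0.05. Levels are printed in the order of replicates 1, 2 and 3. Deviations from the group means correlated by 0.18, 0.42 and 0.21 between arrays of the same number, all above 0. Between arrays of different numbers they correlated by -0.39 to 0.36, and replicate 1 of 24 h was closest to replicate 3 of 0 h. The 3 deviations of a group sum to 0, so these correlations are not independent. The main model did not pair arrays, and a replicate block was fitted as an alternative. The labels do not say that numbers pair the arrays.

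The comparison and lists were chosen with earlier results of these data known. Named genes are, as none passed, the 10 of smallest p per direction among groups without overlap, up to 4 of smallest p per list, and 20 fixed genes; the text prints some of them. Of the list genes, 104 had no match and are not analysed here. On simulated data for this comparison (31042 probe sets) 39% of changes of 1 log2 unit and 93% of changes of 2 were recovered, with 9 false calls. The simulated noise was normal and independent between probe sets and arrays. It held no compressed array and no deviation shared across an array, so these figures do not cover those features of the real arrays.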

Additional observations from a re-analysis of the deposited data

How the results depend on the processing

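The count of 0 probe sets past the threshold was also found without replicate 2 of 0 h, with the replicate block, without the 2 compressed arrays (the other is replicate 1 of 18 mg/kg 4 h), with quantile normalisation, median centring, SD scaling, 1 probe set per gene, trend and robust moderation, only the arrays compared, both 0 h groups pooled, the array SD as a covariate and the 18 mg/kg 0 h arrays. The replicate block changed no call. Array weights gave 10764 probe sets by REML, whose fit stopped before its tolerance, and 7350 gene by gene, and the actin gap as a covariate gave 9781. REML gave replicates 1, 2 and 3 weights of 1.46, 0.302 and 2.30 at 24 h, against 3.96, 0.116 and 0.347 at 0 h. Leaving out 1 array gave 0 to 3777, the highest without replicate 3 of 0 h, and 2 without replicate 3 of 24 h. The difference between doses passed for 5738 probe sets with REML weights, 3856 with weights gene by gene, 2 with the array SD as a covariate, and 0 to 79 with 1 array left out (79 without replicate 3 of 3 mg/kg 0 h). The cause was not tested.

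Signs of the log2 change turned for some genes. Against the 18 mg/kg 0 h arrays Xpnpep3 had 0.080, Sox6 0.12, Dbp -0.055, Kmo -0.0099, Cyp1a2 -0.18, Cyp1a1 0.078, Por -0.25, Hamp -0.28, Mx1 -0.012, Cox7b -0.058, Rpl27 -0.050 and Cd68 -0.31. Cyp1a1 had 0.084 with quantile normalisation, 0.022 with median centring, 0.083 with SD scaling and 0.061 with the array SD as a covariate. Cyp3a23-3a1 had -0.21 with quantile normalisation and -0.55 with SD scaling. Dbp had -0.19 and Por -0.30 with the array SD as a covariate, and Por -0.056 without the 2 compressed arrays. With 1 array left out Dbp ranged from -0.16 to 0.37 and Por from -0.056 to 0.70. The number of arrays, and the spread of the 0 h arrays, limit all values.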
